A study of Mus musculus with 8 samples.

Results

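The 10 genes described here are Atf4, Atf5, Ddit3, Trib3, Asns, Psat1, Phgdh, Mthfd2, Gdf15 and Fgf21, genes of the mitochondrial integrated stress response. They were taken by symbol, and all 10 were found among the 22880 genes counted. RNA of soleus muscle was sequenced from 8 mice at 2 months of age. The 4 controls were Dnm2 +/+ and the 4 mutants Dnm2 +/K562E, all on a background given as C57BL/6 in the labels and as C57BL/6J in the study's methods. Dnm2 encodes dynamin 2, a large GTPase that cuts membranes, and K562E was introduced by homologous recombination at the endogenous gene, so it is heterozygous and carried by every cell type of the muscle. The study asked which transcripts differ in soleus between these genotypes. The libraries held between 33407430 and 48832814 counted reads per mouse. Values are normalized CPM (counts per 1000000 counted reads), scaled by TMM factors, with the SD over the 4 mice of a genotype.

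The integrated stress response starts when a kinase phosphorylates the translation factor eIF2alpha, which lowers protein synthesis while the transcription factor ATF4 is translated more. ATF4 and its relatives ATF5 and CHOP (Ddit3) then switch on genes of amino acid and one-carbon metabolism and, in muscle with impaired mitochondria, the secreted factors GDF15 and FGF21. Because ATF4 is controlled mainly at translation, its activity need not be visible in its own mRNA.

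Among the 10 genes, Mthfd2, an enzyme of mitochondrial folate metabolism, was 3.68 times higher in the Dnm2 +/K562E soleus, Gdf15 was 3.37 times higher and Asns, the asparagine synthetase, 2.14 times higher. Fgf21 had no read in any control and 53 reads in the mutants. Ddit3 fell to 0.585 of its control level, and Atf4 mRNA did not pass the test. Of the 9 members that passed the filter on low counts, 5 rose (Atf5, Trib3, Asns, Mthfd2 and Gdf15), 1 fell (Ddit3) and 3 did not pass (Atf4, Psat1 and Phgdh), by the edgeR quasi-likelihood test at a Benjamini-Hochberg adjusted p under 0.05. Across all 14001 genes tested, 22.2% rose and 21.7% fell. When the change also had to reach 0.58 on the log2 scale, 4 members rose and 1 fell, against 12.9% and 7.85% of all genes. The values of the genotypes did not overlap for 4 of the 9 members in the higher direction and for 1 in the lower, against 20.6% and 20.5% of all genes. The median log2 fold change was 0.57 over the 9 members and 0.0074 over all tested genes.

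ATF4 acts together with C/EBP proteins at a composite site, the C/EBP-ATF response element, with the core TGATGNAA. This core was searched on both strands in RefSeq promoter windows of GRCm38.p6, from 250 bases before to 50 bases after each start, and 3.97% of 32851 windows, or 4.51% of the 27025 genes they belong to, held it. All 10 members had at least 1 window, and 3 of them, Asns, Fgf21 and Trib3, held the core. The Trib3 match begins after the start and is not printed. The stretches around the matches of Asns and Fgf21 are shown because these members differed between the genotypes. Those of Pycr1 and Nupr1 are shown because these other pathway genes rose and also hold the core. This choice went by the change, and other pathway genes that hold the core fell, among them Aars, Got1 and Vldlr. Capitals mark the core on either strand, and each stretch runs 5′ to 3′ on the minus strand, as its gene does.
Asns, chr6:7693210-7693272: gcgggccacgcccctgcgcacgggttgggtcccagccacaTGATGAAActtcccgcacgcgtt
Fgf21, chr7:45615582-45615669: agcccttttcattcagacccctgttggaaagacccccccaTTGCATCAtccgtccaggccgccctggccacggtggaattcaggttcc
Pycr1, chr11:120643804-120643891: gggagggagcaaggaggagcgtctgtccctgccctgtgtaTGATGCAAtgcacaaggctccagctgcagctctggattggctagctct
Nupr1, chr7:126625533-126625620: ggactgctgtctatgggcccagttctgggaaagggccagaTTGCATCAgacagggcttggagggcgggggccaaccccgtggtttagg

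Mthfd2 had the largest log2 fold change of the members tested in the fit on all mice, but without control mouse 2 Gdf15 was larger, at 2.38. The 250 bases of Mthfd2 before the RefSeq start (minus strand) are printed for comparison, with no capitals because these letters do not hold the core.
Mthfd2, chr6:83317605-83317854: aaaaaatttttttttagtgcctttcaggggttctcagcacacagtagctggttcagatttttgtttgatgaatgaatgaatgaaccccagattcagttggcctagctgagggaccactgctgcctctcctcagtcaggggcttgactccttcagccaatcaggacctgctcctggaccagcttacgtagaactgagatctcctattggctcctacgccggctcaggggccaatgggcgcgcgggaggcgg
GENCODE M21 places the far end of Mthfd2 at base 83325908, so other annotated transcripts begin upstream of this window. The full palindrome TGACGTCA, the cyclic AMP response element to which factors of the ATF family can bind, was in 1.79% of the windows and in none of the members'. Of the other pathway genes, 93 had a window. The core was in 17 of them, among them Slc7a11, which passed the filter on low counts through the mutants alone. Leaving Slc7a11 aside, 5 of these rose (Gars, Nupr1, Pck2, Pycr1 and Tars) and 4 fell, among them Aars, Got1 and Vldlr. Of the 76 without the core, 71 were tested, 15 rose and 26 fell. Across all genes tested, 22.2% rose and 21.7% fell. A link between the core and the change was not tested.

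Dnm2 itself, the targeted gene, was measured at 68.8, 68.5, 59.2 and 68.7 CPM in the controls and at 74.2, 76.1, 73.1 and 70.2 CPM in the mutants. Its log2 fold change of 0.15 did not pass (adjusted p = 0.091), but with library size alone it was 0.36 and passed (adjusted p = 0.00271). These counts cover both alleles and do not show the K562E change. Ddx3y, a Y-linked gene, was counted in all mice, at 107 CPM on average in controls and 103 CPM in mutants. Of the fibre markers, the slow myosin Myh7 stood at 6012 ± 263 CPM in controls (SD, n = 4) and the fast markers Tnnt3 and Atp2a1 at 7166 ± 60.9 and 7714 ± 184 CPM. The 7 slow markers summed to 20834 and the 6 fast markers to 26003 CPM in controls, so markers of both fibre types were abundant. None of the 9 cell type marker lists had a gene at 0 in any mouse.

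Among the transcription factors, Atf4 (chr15:80255184-80257541) was measured at 188, 188, 193 and 193 CPM in the controls and at 175, 183, 198 and 178 CPM in the mutants. The mutant values lay on both sides of the control values. The log2 fold change was -0.05, with a 95% confidence interval from -0.18 to 0.07 and an adjusted p of 0.464. With library size alone as the scaling it was 0.16 and passed as higher (adjusted p = 0.0388). That scaling moved the median of all genes by 0.21 and raised the share of higher genes among all calls from 50.5% to 78.8%.

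Atf5 (chr7:44812256-44816658), a relative of Atf4 that serves in mammals as a factor of the mitochondrial unfolded protein response, was measured at 91.3, 87.6, 87.7 and 86.4 CPM in controls and at 97.9, 96.9, 95.8 and 115 CPM in mutants. Every mutant lay above every control, and mutant mouse 4 stood above the other mutants. Atf5 rose by 0.20 on the log2 scale with an SE of 0.07 (adjusted p = 0.0344). Without mutant mouse 4 it was 0.13 and no longer passed (adjusted p = 0.0789). The call was also lost without control mouse 2, 3 or 4, with log2 fold changes between 0.18 and 0.20. Exons of Atf5 overlap Il4i1 and Nup62 on the other strand over 82 bases, and Il4i1 had at most 90 reads in any mouse.

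Ddit3 (chr10:127290774-127296288) encodes CHOP, a factor of prolonged endoplasmic reticulum stress and of the mitochondrial stress response. It was measured at 39.3, 32.8, 26.6 and 27.0 CPM in controls and at 17.8, 20.2, 18.3 and 17.3 CPM in mutants. All mutants lay below all controls, and the controls were spread more widely, with a coefficient of variation of 19% against 6.99%. Ddit3 fell by 0.77 on the log2 scale with an SE of 0.12 (adjusted p = 0.000475). In each of the 17 alternative fits its log2 fold change stayed between -0.85 and -0.56 and passed the test. Ddit3 shares 68 exon bases with Mars, the methionyl-tRNA synthetase on the other strand, which fell by 0.38 on the log2 scale. Whether the reads were counted by strand is not stated.

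Trib3 (chr2:152337422-152344032) encodes a pseudokinase that ATF4 and CHOP switch on and that in turn restrains them. It was measured at 4.50, 2.85, 2.24 and 2.21 CPM in controls and at 3.58, 8.27, 5.13 and 4.16 CPM in mutants. Control mouse 1 lay above 2 of the 4 mutants, so the genotypes overlapped, and mutant mouse 2 was the highest. The log2 fold change of 0.85 (SE 0.30) passed with an adjusted p of 0.0392. It no longer passed without control mouse 2, 3 or 4 or without mutant mouse 2 or 3, and it was lowest, at 0.55, without mutant mouse 2 (adjusted p = 0.131).

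**Figure D1:**
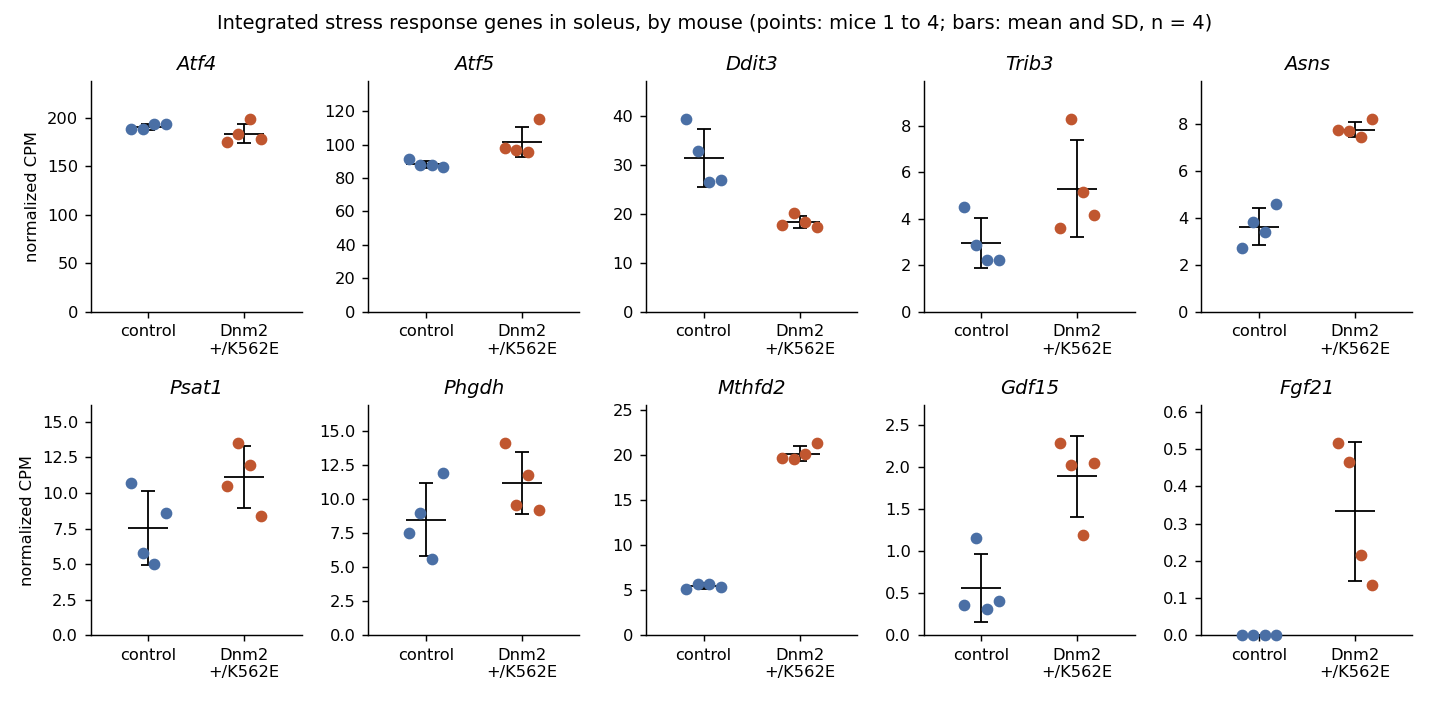
Normalized CPM of the 10 members in each mouse, 1 panel per gene with its own linear axis from 0. Points are single mice in the order of their numbers, blue for control and orange for Dnm2 +/K562E, and the bars give the mean and SD (n = 4). Mthfd2, Asns, Gdf15, Atf5 and Ddit3 separate by genotype, Fgf21 is at 0 in all controls, and Atf4, Trib3, Psat1 and Phgdh overlap.

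Of the metabolic members, Mthfd2 (chr6:83305691-83325908), the mitochondrial methylenetetrahydrofolate dehydrogenase that is low in most adult tissues, was measured at 5.09, 5.73, 5.73 and 5.36 CPM in controls. The mutants had 19.7, 19.5, 20.1 and 21.3 CPM. The lowest mutant was more than 3 times the highest control, and the coefficient of variation was 5.68% in controls and 3.91% in mutants. The log2 fold change was 1.88 with an SE of 0.08 and a 95% confidence interval from 1.70 to 2.06 (adjusted p = 1.54e-07), which placed Mthfd2 at rank 14 of the 14001 genes by p-value and at rank 277 by the size of the change.

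Asns (chr6:7675169-7693254), which makes asparagine from aspartate and glutamine, was measured at 2.71, 3.83, 3.40 and 4.59 CPM in controls and at 7.74, 7.71, 7.46 and 8.21 CPM in mutants. The genotypes did not overlap, and the mutants were close to each other, with a coefficient of variation of 4.02% against 21.7% in controls. Asns rose by 1.10 on the log2 scale with an SE of 0.15 (adjusted p = 0.000215). The change stood between 0.98 and 1.31 in the alternative fits and passed in all 17.

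Phgdh and Psat1 encode the first and the second enzyme of serine synthesis from glycolytic intermediates. Psat1 (chr19:15904678-15947337) had 10.7, 5.82, 5.02 and 8.57 CPM in controls and 10.5, 13.5, 12.0 and 8.40 CPM in mutants. Phgdh (chr3:98313170-98339990) had 7.51, 9.0, 5.58 and 11.9 CPM in controls and 14.1, 9.53, 11.8 and 9.19 CPM in mutants. For both genes the genotypes overlapped.

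The log2 fold change of Psat1 was 0.57 with a 95% confidence interval from 0.06 to 1.07, and it did not pass the test (adjusted p = 0.0651). It passed in 6 alternatives, among them without control mouse 1, at 0.78 (adjusted p = 0.00835), and without mutant mouse 4, at 0.68 (adjusted p = 0.0431). The value of Phgdh was 0.40, with an interval from -0.08 to 0.87 (adjusted p = 0.158), and without control mouse 4 it was 0.60 and passed (adjusted p = 0.0304). Phgdh is the member that shares the most sequence with other genes. Of its 31-base stretches, 56.3% also occur in other annotated genes, most in processed pseudogenes such as Gm7901, which holds 44.8% of them, and the 5 pseudogenes that share most have no count of their own in the files.

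The secreted members were the lowest. Gdf15 (chr8:70629393-70632456), a stress-induced hormone that acts on the hindbrain, was measured at 0.357, 1.16, 0.313 and 0.412 CPM in controls and at 2.28, 2.02, 1.19 and 2.05 CPM in mutants. Control mouse 2 stood well above the other controls, just under mutant mouse 3, and the genotypes did not overlap. The log2 fold change was 1.76 with an SE of 0.42 (adjusted p = 0.0057). Without control mouse 2 it was 2.38 and passed. The value rests on between 12 and 39 reads in each control and between 50 and 87 in each mutant.

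Fgf21 (chr7:45613886-45615490), a hormone of fasting and mitochondrial stress, had 0 reads in all 4 controls. The mutants had 19, 20, 9 and 5 reads, or 0.516, 0.465, 0.215 and 0.135 CPM. The gene did not pass the filter on low counts and is not part of the fit. A floor of 3 reads over the 157167743 reads of all controls, scaled by their TMM factors, allows a level of up to 0.0206 CPM. The mutant mean of 0.333 ± 0.186 CPM (SD, n = 4) was at least 16.2-fold higher than that level. Such floors cover counting error only. An exact two-sided permutation test of the mean CPM gave p = 0.0286, the smallest p that 4 mice against 4 can give. This p is not adjusted, and any gene whose genotypes do not overlap reaches it, so it adds nothing to the read counts.

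**Figure D2:**
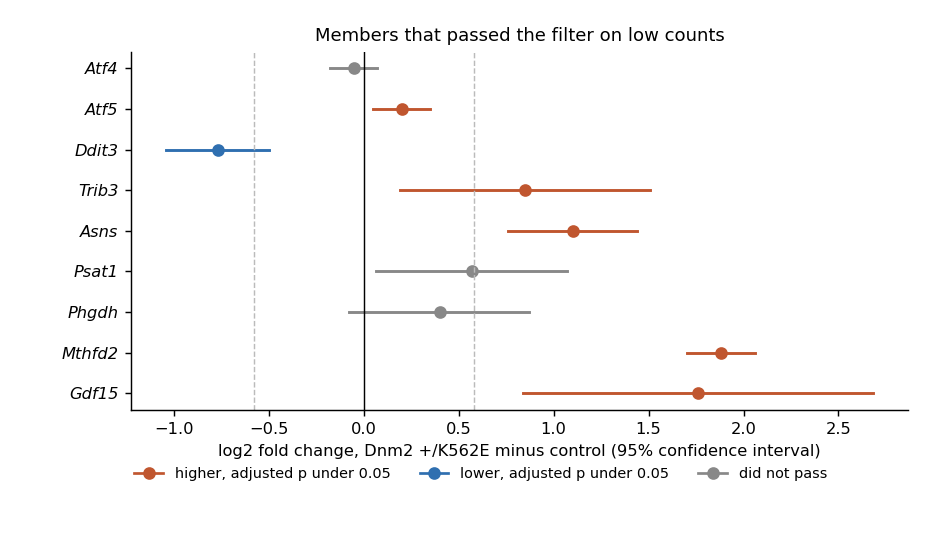
Log2 fold change of Dnm2 +/K562E against control for the 9 members that passed the filter on low counts, with 95% confidence intervals from the edgeR quasi-likelihood fit. Orange marks genes that rose, blue those that fell and grey those that did not pass, and dashed lines stand at 0.58 in either direction. Mthfd2 has the narrowest interval of the members that rose past 0.58, from 1.70 to 2.06, and Gdf15 the widest, from 0.84 to 2.68.

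Per kilobase of exon, the order of levels in controls was Atf4 (80.7 CPM per kb), Atf5 (44.3), Ddit3 (18.3), Phgdh (3.41), Psat1 (1.77), Mthfd2 (1.57), Trib3 (1.39), Asns (1.33), Gdf15 (0.302) and Fgf21. The control mice of Atf4, Atf5 and Ddit3 did not overlap those of the next gene, whereas each neighbouring pair from Phgdh to Asns did overlap. In mutants Mthfd2 was in place 4, at 5.78 CPM per kb, and overlapped Phgdh at 4.49. Asns (2.85), Psat1 (2.61) and Trib3 (2.49) followed and overlapped in the mutants as well. With the longest transcript as the length, the order of Asns and Trib3 in controls and that of Asns and Psat1 in mutants turned round. The members did not follow a common order of mice. Mutant mouse 1 was the highest mutant for Phgdh, Gdf15 and Fgf21, mutant mouse 2 for Ddit3, Trib3 and Psat1, and mutant mouse 4 for Atf5, Asns and Mthfd2.

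Cells other than muscle fibres also express these genes, and in bulk muscle fewer cells of a type and less RNA per cell cannot be told apart. Of 7 macrophage markers, 7 rose. Their summed level was 76.3, 78.7, 72.8 and 135 CPM in controls and 296, 223, 217 and 179 CPM in mutants, and Csf1r, the receptor of a macrophage growth factor, was the most abundant. Control mouse 4 stood above the other controls but under every mutant.

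Of 6 fibroblast markers, 5 rose, with sums of 2060, 1823, 1980 and 2758 CPM in controls and 5055, 4756, 4379 and 3901 CPM in mutants. Col3a1, a fibrillar collagen, was the most abundant in mutants, at 1569 CPM. In controls Dcn, at 758 CPM, stood above Col3a1, at 708 CPM. The sums of the genotypes did not overlap. Among markers of satellite cells and regenerating fibres, Myog and embryonic myosin Myh3, the most abundant, rose, while Pax7 and Myf5 fell, and the sums were 77.5, 64.9, 73.2 and 78.7 CPM in controls and 511, 382, 352 and 440 CPM in mutants.

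Of 6 markers of denervated fibres, 5 rose. The sums were 99.1, 87.3, 100 and 83.3 CPM in controls and 234, 199, 208 and 225 CPM in mutants. The acetylcholine receptor subunit Chrna1 was the most abundant in mutants, at 86.6 CPM. In controls Hdac4, at 42.8 CPM, stood above Chrna1, at 30.5 CPM. By staining of soleus endplates at this age, the study found marginally fewer fully innervated endplates and no significant increase of fully denervated fibres. Whether the rise of these genes reflects denervation was not tested. The sums of both fibre types were lower in every mutant than in any control. For the 7 slow fibre markers, of which 6 fell, they were 19781, 20968, 23036 and 19551 CPM in controls and 12622, 13273, 14339 and 11338 CPM in mutants, with Myh7 the most abundant. For the 6 fast fibre markers, of which 5 fell, they were 25309, 25135, 25766 and 27804 CPM in controls and 14290, 14999, 14707 and 16925 CPM in mutants. The troponin Tnnt3 was the most abundant in mutants, at 4452 CPM. In controls Atp2a1, at 7714 CPM, stood above Tnnt3, at 7166 CPM. Sums of marker RNA do not count fibres. By staining, the study reported a very small but significant increase of type II and decrease of type I fibres in soleus at this age.

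All 4 endothelial markers fell, led in abundance by Cdh5, with sums of 823, 810, 850 and 813 CPM in controls and 576, 630, 661 and 644 CPM in mutants. When library size alone set the scale, 2 of the 4 fell. Of 4 Schwann cell markers, Mbp fell and the other 3 did not pass, and none of 5 adipocyte markers passed. The call of Mbp was lost on that other scale, at -0.026 (adjusted p = 0.75), where no Schwann cell marker passed. For these last lists the sums overlapped between the genotypes, from 85 to 96.7 CPM in controls and from 74.5 to 86.1 CPM in mutants for the Schwann cell list, whose most abundant gene was Mbp. For the adipocyte list, led by Fabp4, they ran from 465 to 878 CPM and from 528 to 679 CPM. The part of these cell types in the differences of the stress response genes was not tested.

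**Figure D3:**
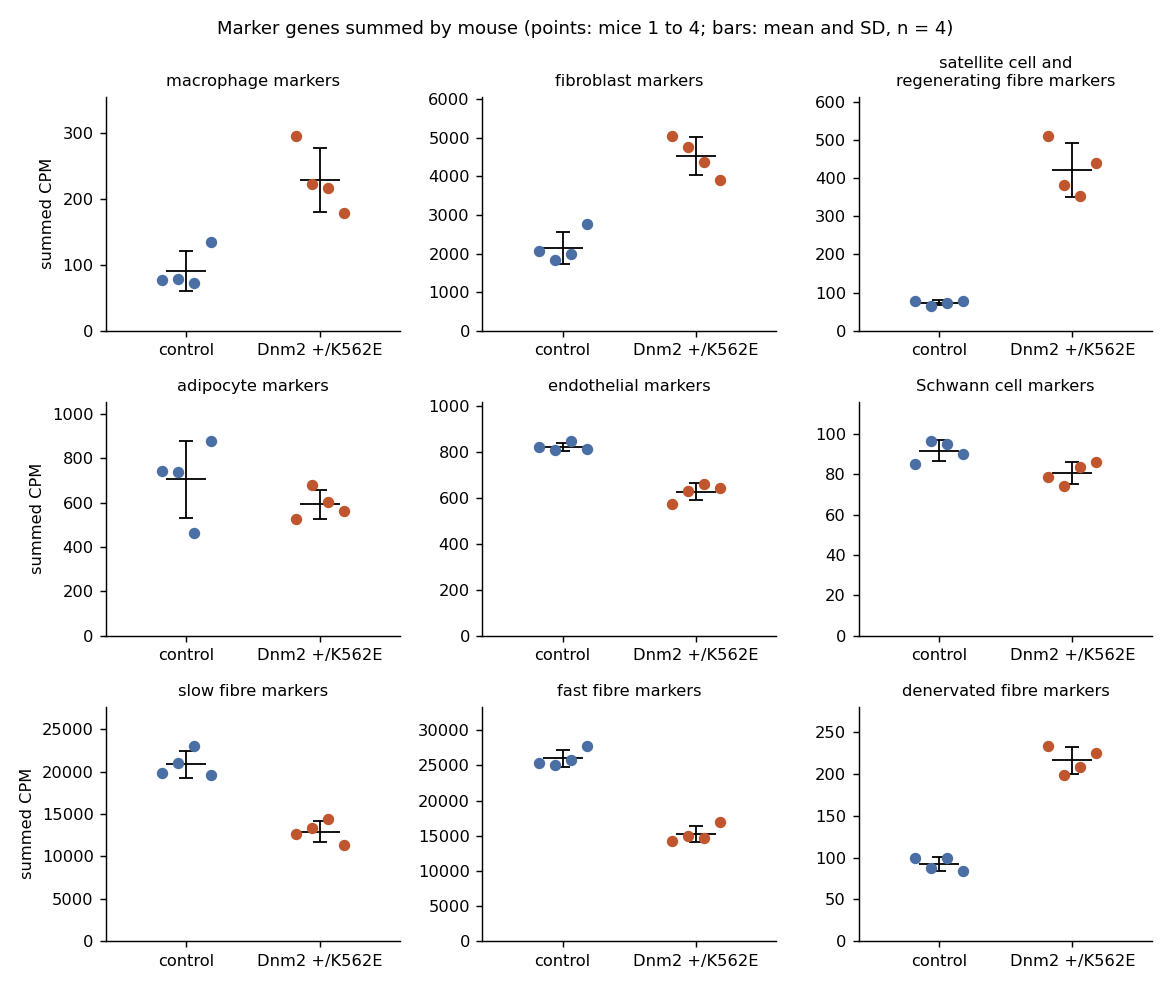
Summed CPM of the 9 marker lists in each mouse, with linear axes from 0, blue points for control and orange for Dnm2 +/K562E, and bars for the mean and SD (n = 4). The macrophage, fibroblast, regenerating fibre and denervated fibre sums were higher in all 4 mutants than in any control, the slow fibre, fast fibre and endothelial sums were lower, and the adipocyte and Schwann cell sums overlapped.

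Upstream of the members lie the 4 kinases of eIF2alpha. Eif2ak3 (PERK, the kinase of the endoplasmic reticulum) rose from 12.8 ± 2.09 to 16.5 ± 1.15 CPM (log2 fold change 0.37, adjusted p = 0.0249). Eif2ak2 (PKR, which senses double-stranded RNA) rose from 10.2 ± 1.88 to 12.9 ± 0.988 CPM with overlapping genotypes (0.35, adjusted p = 0.0463). Eif2ak1 (HRI), the kinase to which mitochondrial stress is relayed, and Eif2ak4 (GCN2), which senses uncharged tRNA, did not pass, with log2 fold changes of -0.13 and -0.15, which turned to 0.08 and 0.059 with library size alone.

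The call of Eif2ak2 was lost without any of control mice 2 and 3 and the 4 mutants, with adjusted p-values between 0.0588 and 0.119. That of Eif2ak3 was lost without control mouse 1 or 3 or mutant mouse 1, 2 or 3, with adjusted p-values between 0.0522 and 0.0732.

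The relay from mitochondria to HRI consists of the protease OMA1 and of DELE1, which leaves mitochondria once OMA1 has cut it. Dele1 was measured at 114, 119, 121 and 108 CPM in controls and at 63.2, 74.6, 73.6 and 70.1 CPM in mutants, a log2 fold change of -0.71 (SE 0.07, adjusted p = 1.74e-05). Oma1 had 21.9, 21.9, 26.4 and 20.6 CPM in controls and 15.6, 14.1, 13.8 and 18.1 CPM in mutants, with a log2 fold change of -0.56 (SE 0.11, adjusted p = 0.00174). For both genes all mutants lay below all controls. Gcn1l1, the partner of GCN2, fell by 0.20 on the log2 scale, so that of the 8 kinase and relay genes 2 rose and 3 fell. The call of Gcn1l1 was lost without control mouse 2, 3 or 4 or mutant mouse 2, 3 or 4, and with library size alone its value turned to 0.013.

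Among the 10 subunits of eIF2, of its exchange factor eIF2B and of the eIF2alpha phosphatases, 4 fell and none rose. The eIF2B subunit Eif2b1 fell by 0.36 on the log2 scale (adjusted p = 0.000983), and Eif2s2 and Eif2b2 fell by 0.21 each. With library size alone none of the 10 fell and 5 rose, and of the genes named Eif2b1 stood at -0.15 and Eif2b2 at -0.0018 while Eif2s2 turned to 0.005, none of them passing. Without control mouse 2, Eif2b2 did not pass either (adjusted p = 0.052). The median of the list moved from -0.04 to 0.17, by the same 0.21 as that of all genes. Ppp1r15a, the phosphatase subunit GADD34 that ends the response, had a log2 fold change of 0.07 and did not pass. Its value was -0.013 without control mouse 1, and 0.28 with a call on the scale of library size alone (adjusted p = 0.039).

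Of the 5 partner factors of ATF4, Nupr1 rose, with 22.6, 21.8, 24.9 and 30 CPM in controls and 44.9, 41.6, 35.5 and 39.1 CPM in mutants. Its log2 fold change was 0.70 (SE 0.11, adjusted p = 0.000422), without overlap of the genotypes. Cebpg, a C/EBP partner, fell by 0.33 on the log2 scale (adjusted p = 0.0155), and Atf3, Cebpb and Jdp2 did not pass. The call of Cebpg was lost with library size alone, at -0.12 (adjusted p = 0.244), where Jdp2 passed at 0.48. Cebpb passed without control mouse 1, at -0.61 (adjusted p = 0.00859). Atf3, an immediate response gene, ran from 6.91 to 43.8 CPM within the controls alone.

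Of 8 tested genes in the list of other ATF4 targets, 2 rose and 2 fell. Pck2, the mitochondrial phosphoenolpyruvate carboxykinase, rose by 0.38 on the log2 scale (adjusted p = 0.0314), and Stc2, a secreted glycoprotein, by 0.55 (adjusted p = 0.0331). The genotypes overlapped for both. Gpt2, the mitochondrial alanine transaminase, went the other way, from 48.2 ± 6.12 to 20.8 ± 0.89 CPM (log2 fold change -1.21, adjusted p = 2.95e-06), and Vldlr, a lipoprotein receptor, fell by 0.36 on the log2 scale, a call lost with library size alone, at -0.14 (adjusted p = 0.12). Chac1, which degrades glutathione, had a log2 fold change of 0.70 that did not pass, since it ran from 4.65 to 14.1 CPM in controls and from 7.06 to 28.7 CPM in mutants. The call of Pck2 was lost without control mouse 2, 3 or 4 or mutant mouse 2 or 3, with adjusted p-values between 0.0556 and 0.0961, and that of Stc2 without control mouse 2, 3 or 4 or mutant mouse 2, 3 or 4, between 0.0548 and 0.0883.

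**Figure D4:**
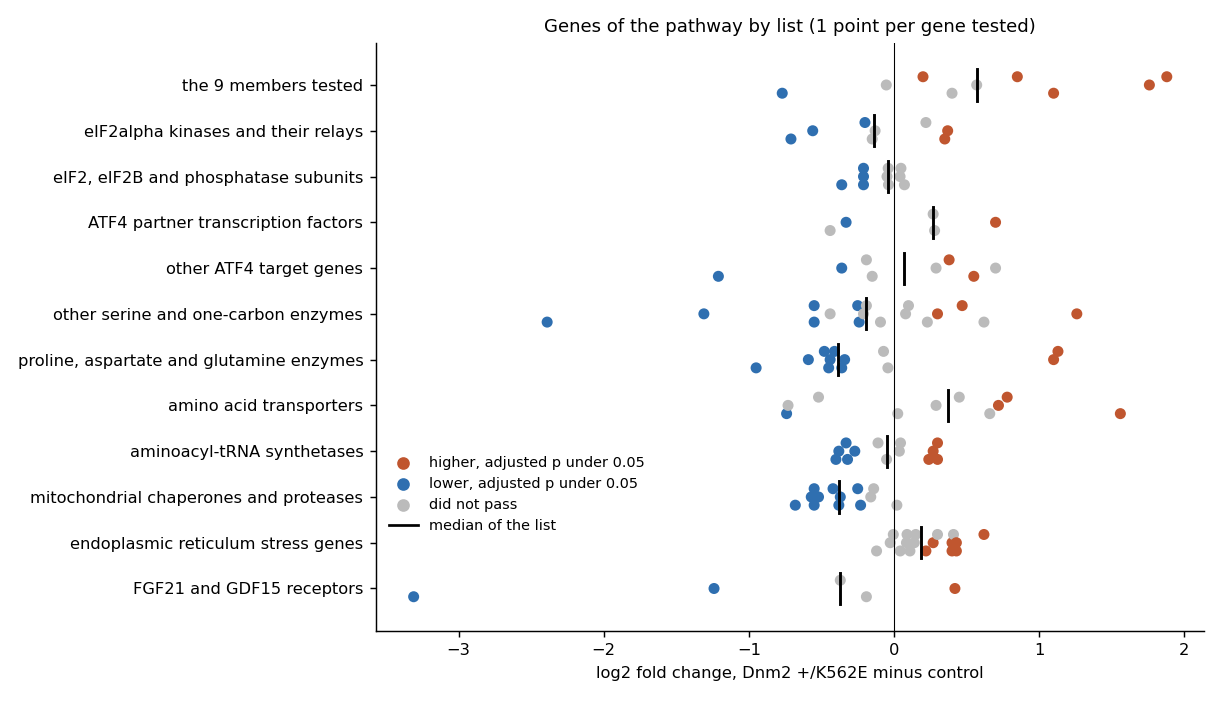
Log2 fold changes of the 9 members tested and of the 119 other pathway genes tested, 1 point per gene, by list. Orange points rose, blue points fell, grey points did not pass and the black line is the median of each list. The members lie mostly to the right of 0, with a median of 0.57, while the mitochondrial chaperones and proteases lie mostly to the left, with a median of -0.38.

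Around Mthfd2, the other serine and one-carbon enzymes moved in both directions, with 3 higher and 6 lower of 17 tested and a median log2 fold change of -0.19. Mthfd1l, which follows Mthfd2 in the mitochondrial folate pathway by releasing formate, had 3.04, 0.920, 1.32 and 1.35 CPM in controls and 3.31, 4.30, 4.46 and 3.70 CPM in mutants. Control mouse 1 lay just below the lowest mutant, and the log2 fold change was 1.26 (SE 0.31, adjusted p = 0.00787). Sfxn1, the mitochondrial serine transporter, rose by 0.47 and Gcsh, a protein of the glycine cleavage system, by 0.30 on the log2 scale. The call of Sfxn1 was lost without control mouse 2 or 3 or mutant mouse 1, 2 or 4, with adjusted p-values between 0.0563 and 0.0939.

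In the lower direction, Cth, cystathionine gamma-lyase of cysteine synthesis, fell from 5.72 ± 1.17 to 1.08 ± 0.336 CPM (log2 fold change -2.39, adjusted p = 2.47e-05). Aldh1l1, the cytosolic formyltetrahydrofolate dehydrogenase, fell from 10.1 ± 1.53 to 4.04 ± 1.14 CPM (log2 fold change -1.31, adjusted p = 0.000324). Shmt2, the mitochondrial serine hydroxymethyltransferase one step before Mthfd2, fell by 0.25 on the log2 scale, and its cytosolic counterpart Shmt1 fell by 0.55. With library size alone the counts of the list were 5 higher and 2 lower, and both Shmt genes lost their call, with Shmt2 at -0.037 and Shmt1 at -0.34. The call of Shmt1 was also lost without control mouse 1 or 2 or any 1 of the mutants, and that of Shmt2 without control mouse 2 or 3 or mutant mouse 1, 3 or 4.

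Of 12 enzymes of proline, aspartate and glutamine metabolism, 2 rose and 8 fell. The genes that rose catalyse the first and last steps of proline synthesis from glutamate. Aldh18a1 had 7.71, 7.72, 7.46 and 9.71 CPM in controls and 20.3, 16.0, 17.3 and 17.6 CPM in mutants (log2 fold change 1.13, SE 0.11, adjusted p = 2.05e-05). Pycr1 had 3.99, 3.59, 1.59 and 4.12 CPM in controls and 9.04, 5.88, 6.87 and 6.54 CPM in mutants (log2 fold change 1.10, SE 0.26, adjusted p = 0.00621). For neither gene did the genotypes overlap.

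Prodh, which breaks proline down, fell by 0.95 on the log2 scale (adjusted p = 0.00734). Oat, ornithine aminotransferase, fell by 0.45, and Glul, glutamine synthetase, by 0.48 on the log2 scale. The aspartate aminotransferases Got1 and Got2 fell by 0.44 and 0.41.

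**Figure D5:**
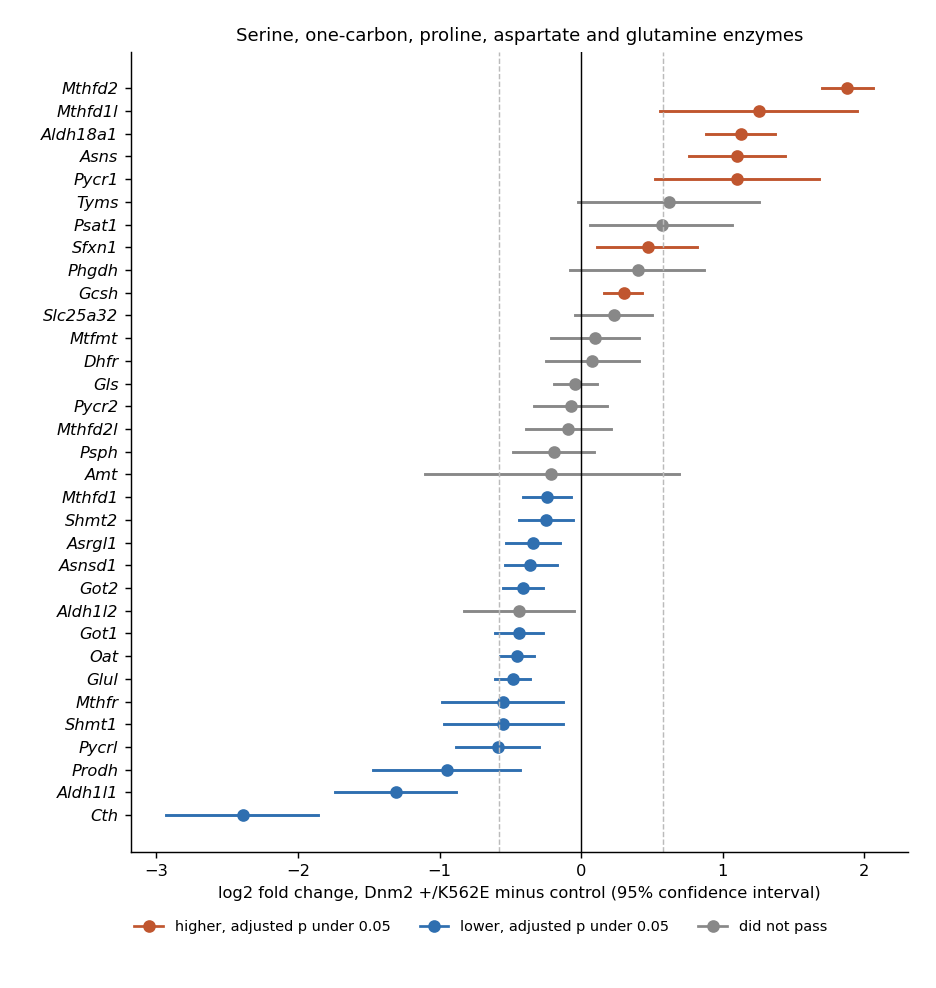
Log2 fold changes with 95% confidence intervals for 4 members (Mthfd2, Asns, Psat1 and Phgdh) and the other tested enzymes of serine, one-carbon, proline, aspartate and glutamine metabolism, in order of size. Orange genes rose, blue genes fell, grey genes did not pass and dashed lines stand at 0.58 in either direction. Mthfd2 is at the top with 1.88, followed by Mthfd1l, Aldh18a1, Asns and Pycr1, and Cth is at the bottom with -2.39.

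Of 10 amino acid transporters 3 rose and 1 fell. For 1 of these, Slc7a11, the cystine importer, the controls had 4, 1, 9 and 5 reads and the mutants 15, 16, 17 and 13. It passed the filter on low counts through the mutants alone, so its log2 fold change of 1.56 (adjusted p = 0.0177) is a description, and 2 rose apart from it. Slc7a1, the importer of cationic amino acids, rose from 14.6 ± 2.89 to 25.2 ± 3.85 CPM and Slc7a5, the importer of large neutral amino acids, from 5.98 ± 1.12 to 9.89 ± 0.605 CPM. Slc38a1, a glutamine transporter, fell by 0.74 on the log2 scale. When library size alone set the scale, 6 of the 10 rose and none fell, with Slc38a1 at -0.53 (adjusted p = 0.0571).

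The 13 genes for cytosolic aminoacyl-tRNA synthetases, the tRNA exporter Xpot among them, split into 4 that rose and 5 that fell, with changes of at most 0.40 in size. Gars rose by 0.30, whereas Aars fell by 0.33 and Mars by 0.38 on the log2 scale. Scaled by library size alone, 6 rose and none fell.

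Of 13 mitochondrial chaperones and proteases, the classical targets of the mitochondrial unfolded protein response, 10 fell and none rose. Spg7, a subunit of a protease of the inner membrane, fell by 0.68 on the log2 scale (adjusted p = 1.64e-05). Hspa9, the mitochondrial Hsp70, and its co-chaperone Dnaja3 each fell by 0.55 (adjusted p = 8.4e-05 and 5.14e-05). The chaperonins Hspd1 and Hspe1 fell by 0.57 and 0.52. Scaled by library size alone, 6 of the 13 fell and 1 rose.

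Of 18 endoplasmic reticulum stress genes, 7 rose and none fell. Dnajb9, a co-chaperone of BiP, was measured at 42.6, 43.9, 40.5 and 40.1 CPM in controls and at 59.8, 70.3, 72.4 and 54.3 CPM in mutants (log2 fold change 0.62, adjusted p = 0.00031). Dnajb11 rose by 0.43 and Calr, calreticulin, by 0.40 on the log2 scale. Hspa5, which encodes BiP itself, had a log2 fold change of 0.11 (-0.036 without control mouse 1) and did not pass, nor did Xbp1 with 0.15 and Herpud1 with -0.12. Scaled by library size alone, 12 of the 18 rose and none fell.

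Among the receptors of the secreted members, Fgfr1, the main receptor of FGF21, rose from 95.4 ± 11.7 to 127 ± 10.2 CPM (log2 fold change 0.42, adjusted p = 0.00368). Its co-receptor Klb was too low to be tested, at most 2.18 CPM in a control and 0.462 CPM in a mutant. Fgfr4 stood at 6.87 ± 1.67 CPM in controls and at 0.676 ± 0.527 CPM in mutants. Its mutants had 14, 41, 53 and 4 reads, and mutant mouse 4, at 0.108 CPM, lay under the minimum of the filter. With at least 10 counts asked of every mouse Fgfr4 was not tested, so its log2 fold change of -3.31 (adjusted p = 0.000195) is a description. Ret, the signalling partner of the GDF15 receptor, fell by 1.24 on the log2 scale (adjusted p = 0.00141), with control mouse 1 among the mutants, and Gfral, the GDF15 receptor of the hindbrain, had no read in any mouse.

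Over all 119 tested genes of these 11 lists, 25 rose (24 without Slc7a11) and 42 fell (41 without Fgfr4), against 22.2% and 21.7% of all genes, with a median log2 fold change of -0.07. Scaled by library size alone, 46 rose and 19 fell. On that scale 3 of the 8 kinase and relay genes rose and 2 fell, 2 of the 5 partner factors rose and none fell, 3 of the 8 other ATF4 targets tested rose and 1 fell, 2 of the 12 proline, aspartate and glutamine enzymes rose and 6 fell, and of the 5 tested receptors 1 rose and 2 fell.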

How the data were processed

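RNA of soleus muscle from 4 control and 4 Dnm2 +/K562E mice was sequenced, with 1 library per mouse. Per the study's methods and the submitters' processing notes, the authors trimmed reads with Trimmomatic 0.33, aligned them with STAR 2.5.1b to GRCm38.p5 with Ensembl release 80 gene models and counted them with featureCounts at a mapping quality of at least 10. Overlapping genes share reads, since a read was assigned to every gene it overlapped. The options named allowed multi-mapping reads by their primary alignment only, subject to that cutoff on mapping quality. Genes with near-identical copies are therefore uncertain. The deposited values are raw counts per gene and mouse. The methods name poly A-enriched libraries and the labels a stranded total RNA kit, and the strand setting of the counting is not given in the sources used here.

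Of 22880 gene IDs, 22647 were matched to GENCODE M21 for symbols, positions (GRCm38) and exon lengths. Genes with low counts were removed by filterByExpr, at a minimum of 10 reads and a total of 15, which left 14001. These were normalized with TMM factors and tested by edgeR 4.0.16 with the quasi-likelihood F-test in R 4.3.3, with Benjamini-Hochberg adjustment over all of them. Standard errors are those implied by the F statistic. The fit was run on simulated data in which 199 of 13901 tested genes changed by 1.5 on the log2 scale. It recovered 92.5% of these, and 10 of its 194 calls were wrong. In the real data 3103 genes rose and 3036 fell, and the simulation did not test the scaling with so many changed genes. Fgf21, which the filter removed, was tested by exact permutation with scipy 1.17.1. Depth was between 33407430 and 48832814 counts per mouse, so that 3 counts were worth between 0.0672 and 0.0894 CPM. Shared sequence was measured as 31-base stretches of the GENCODE transcripts. Promoter windows are from RefSeq.

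The members and gene lists were chosen with earlier results of these data known. The genes named are the 10 members, Dnm2, the 4 eIF2alpha kinases and the 3 genes of smallest p-value in each pathway list. In each marker list, the gene most abundant over all mice and that of smallest p-value were named as well. For 1 marker gene the result is not reported here, and its list is described without it. Other list genes were named after their values were seen, among them Mthfd1l, Pycr1, Prodh, Slc7a11, Stc2, Chac1, Shmt1 and Shmt2. Alternatives were the edgeR exact test, DESeq2 1.42.0, other scalings and filters, a block by mouse number, a threshold on the fold change, transcript length and leaving out each mouse. Nothing names litters or sequencing batches for these mice, and p-values measure the spread between these animals.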

Additional observations from a re-analysis of the deposited data

Results flagged for a closer look

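Of 173 groups of 4 mice examined for the named genes, 16 held a mouse whose gap to the others was large against the range of its group, and chance gives about 1 in 20 such groups.

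Among the members, Atf5 stood at 115 CPM in mutant mouse 4, against 95.8 to 97.9 CPM in the other mutants, and Gdf15 at 1.16 CPM in control mouse 2, against 0.313 to 0.412 CPM in the other controls. Dnm2 was low in control mouse 3, at 59.2 CPM. Mutant mouse 4 was also apart for the receptor gene Fgfr1 (112 CPM, below the others), for Gars (69.2 CPM, above) and for the fast troponin Tnnt3 (5406 CPM, above).

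Control mouse 4 was apart for Aldh18a1 (9.71 CPM, above the other controls), for Csf1r (49.6 CPM, above) and for Dnaja3 (99 CPM, below). Control mouse 3 was apart for Aldh1l1 (7.79 CPM, below) and Glul (241 CPM, above), and control mouse 2 for Eif2b1 (32.2 CPM, below). Control mouse 1 was apart for Hspe1 (70.1 CPM, above) and Stc2 (5.75 CPM, above). In single mutants, Ret stood at 12.5 CPM in mouse 1, above the others, and Vldlr at 173 CPM in mouse 3, below them.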

How the results depend on the processing

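Over the 17 alternative fits, 132 of 153 values for the 9 tested members kept their direction and side of the threshold, 12 lost the call (6 each for Atf5 and Trib3), 8 gained one (6 for Psat1, 2 for Phgdh) and 1 changed direction and gained a call (Atf4, 0.16 with library size alone, adjusted p = 0.0388). The log2 fold changes of Mthfd2, Asns, Gdf15 and Ddit3 passed in every fit. Of 883 values for the 52 other named genes 850 kept both as well, 28 lost the call and 2 gained one (Dnm2 with library size alone and Cebpb without control mouse 1). The 3 that changed direction were Eif2ak1 (0.08), Eif2ak4 (0.059) and Eif2s2 (0.005), all with library size alone. For the 25 genes named after their values were seen, 377 of 424 values kept both, 37 lost the call and 4 gained one (Jdp2, Ppp1r15a, Xbp1 and Xpot, with library size alone). In that group 6 values changed direction. With library size alone Gcn1l1 was 0.013 and Herpud1 0.093. Leaving out 1 mouse at a time, Atf3 ran from -0.26 to 0.58, and it was negative without control mouse 1 and without mutant mouse 3. Without control mouse 1, Hspa5 and Ppp1r15a reached their lowest values, in ranges from -0.036 to 0.19 and from -0.013 to 0.11. With at least 10 counts in every mouse Slc7a11 and Fgfr4 were not tested, and 24 other pathway genes rose and 41 fell.

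With library size alone, 8 members, 46 other pathway genes and 5606 of all genes rose, and 19 other pathway genes and 1505 of all genes fell, against 5, 25, 3103, 42 and 3036 with TMM factors. With a log2 fold change of at least 0.58 as well, 8 other pathway genes and 1806 of all genes rose, and 10 and 1099 fell. Leaving out 1 mouse at a time gave 3 to 6 members higher, with 3 reached without control mouse 2 and without control mouse 3, and 1 lower each time. It gave 19 to 26 other pathway genes higher and 34 to 44 lower. Without a filter on low counts Fgf21 was tested and 6 members rose.

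The mouse numbers of the titles and of the descriptions were tried as a replicate block. Same-numbered mice did not deviate together (mean correlation -0.114 and -0.03), so the numbers do not pair the mice. With the block by title numbers 3 members rose, without the calls of Atf5 and Trib3. With that by description numbers 5 rose, without Atf5 and with Psat1. Few reads lie behind Fgf21, with 5 to 20 per mutant, Gdf15, with 12 to 39 per control, and Slc7a11, with 1 to 9 per control and 13 to 17 per mutant.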
